A study of Mus musculus with 12 samples.

Results

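The genes described here are 10 output genes of the circadian clock, Nfil3, Dbp, Tef, Hlf, Per1, Per2, Per3, Nr1d1, Nr1d2 and Cry1, in regulatory T cells of mouse lymph nodes. They were chosen by symbol, with the log2 values of these same 12 arrays in view, because Nfil3 leaned down in NOD.Drak2-/- cells. All 10 had a row in the table of 19505 genes, each exactly 1 row. The cells were compared on 12 arrays, 6 from NOD mice, which are prone to autoimmune diabetes, and 6 from NOD.Drak2-/- mice, which lack the kinase Drak2 encoded by Stk17b. All mice were females of 4 to 8 weeks, 1 mouse stood behind each array, and the cells were sorted from lymph nodes as positive for CD4 and CD25, negative for CD8 and low for CD45RB. The sources used here give neither the construction of the Drak2 allele nor the hour of day at which cells were taken.

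The circadian clock of mammalian cells is a feedback loop. CLOCK (or its relative NPAS2) and ARNTL, also called BMAL1, bind E-box sequences and switch on the Period and Cryptochrome genes, whose proteins then block them. They also switch on Nr1d1 and Nr1d2, whose proteins REV-ERB alpha and beta repress Arntl. Dbp, Tef and Hlf encode activators of the PAR bZIP family that carry the rhythm to other genes through D-box sequences, and NFIL3, also called E4BP4, represses through the same D-box. In T cells NFIL3 is known outside the clock as a regulator of cytokine genes and of Foxp3, and Nfil3 is itself repressed by REV-ERB alpha. Because Dbp, the Period genes and Nr1d1 normally peak at set hours, their levels in a tissue depend on the time of collection.

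The promoters of these genes were searched for letters that match elements of the loop, and 5 of the windows that hold a match are shown. RefSeq windows of the mouse build GRCm38.p6, from 250 bases before to 50 after an annotated start, matched 9 of the 10 genes and gave 11 windows. Matches are in capitals, in the direction of the gene. The E-box was searched as CACGTG, which reads the same on both strands, the D-box as TTANGTAA on both strands, and the hexamer bound by REV-ERB, ROR and other nuclear receptors as AGGTCA on both strands, so that TGACCT is a match on the other strand; no match overlapped another.
Nfil3, chr13:52980990-52981289, minus strand: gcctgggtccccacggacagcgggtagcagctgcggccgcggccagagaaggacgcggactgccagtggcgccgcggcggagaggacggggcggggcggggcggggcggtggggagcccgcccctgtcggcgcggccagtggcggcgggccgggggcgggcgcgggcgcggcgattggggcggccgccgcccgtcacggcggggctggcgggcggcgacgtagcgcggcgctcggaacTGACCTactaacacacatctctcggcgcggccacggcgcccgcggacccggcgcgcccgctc
Per3, chr4:151044616-151044915, minus strand: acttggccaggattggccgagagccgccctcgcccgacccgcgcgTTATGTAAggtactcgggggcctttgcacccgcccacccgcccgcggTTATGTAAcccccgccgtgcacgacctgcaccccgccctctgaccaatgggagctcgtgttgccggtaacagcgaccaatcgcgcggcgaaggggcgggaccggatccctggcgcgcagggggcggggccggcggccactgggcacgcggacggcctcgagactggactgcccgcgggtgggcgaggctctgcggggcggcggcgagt
Per1, chr11:69098699-69098998, plus strand: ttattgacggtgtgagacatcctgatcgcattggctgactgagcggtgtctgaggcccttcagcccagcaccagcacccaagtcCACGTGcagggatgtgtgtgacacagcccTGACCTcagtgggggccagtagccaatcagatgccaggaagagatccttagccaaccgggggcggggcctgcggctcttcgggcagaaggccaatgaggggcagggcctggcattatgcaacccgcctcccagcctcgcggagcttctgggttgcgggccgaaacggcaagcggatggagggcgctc
Cry1, chr10:85185005-85185304, minus strand: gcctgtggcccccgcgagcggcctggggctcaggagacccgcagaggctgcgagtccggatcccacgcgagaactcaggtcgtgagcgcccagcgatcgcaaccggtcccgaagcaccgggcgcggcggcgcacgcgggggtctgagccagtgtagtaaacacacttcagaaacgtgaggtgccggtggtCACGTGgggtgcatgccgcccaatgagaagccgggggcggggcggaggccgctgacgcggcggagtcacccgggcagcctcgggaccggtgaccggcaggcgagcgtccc
Tef, chr15:81802423-81802722, plus strand: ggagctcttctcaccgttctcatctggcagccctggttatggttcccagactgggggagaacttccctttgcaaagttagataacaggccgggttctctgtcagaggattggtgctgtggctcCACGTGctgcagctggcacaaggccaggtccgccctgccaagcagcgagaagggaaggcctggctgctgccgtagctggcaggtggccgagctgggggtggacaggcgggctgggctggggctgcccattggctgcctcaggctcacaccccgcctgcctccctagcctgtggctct
Per3 held 2 D-box matches, both TTATGTAA, starting 205 and 158 bases before the start, and D-box matches stood in 2.32% of the 32851 windows of all genes. E-box matches lay 166 bases before the start of Per1, 60 before Cry1 and 127 before Tef, and 7.15% of all windows held one. The second annotated start of Tef had one too, 138 bases before it. The hexamer lay 12 bases before the start of Nfil3, 137 before Per1 and 77 before Nr1d2, and in 16.3% of all windows. Of the 9 genes with a window, 3 held an E-box match, 1 a D-box match and 3 the hexamer. The windows of Dbp, Hlf, Nr1d1 and the second annotated start of Per1 held no match. A match describes these letters only, and whether a factor was bound was not measured.

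Values are log2 expression values, 1 per gene and array. Array medians lay between 5.18 and 5.34, and arrays correlated between 0.968 and 0.991 across genes, which are not independent replicates. The brightest of 23 background rows, made of probes without a target, averaged 5.87 and ran from 5.51 to 6.06 in NOD and from 5.55 to 6.77 in NOD.Drak2-/-; below it a value gives only a bound on expression. Of 9 measured regulatory T cell and T cell markers 8 averaged above that mean, such as Ctla4 (9.81 in NOD and 9.60 in NOD.Drak2-/-) and Cd4 (9.67 and 9.87), whereas Il2ra, the gene of CD25, averaged 4.82 and 5.00 in the background range, and Foxp3 was not analysed here. Of the markers of other cells, 1 of 5 CD8 and NK cell genes (Cd8b1, 7.27 in NOD and 7.45 in NOD.Drak2-/-), 1 of 7 B cell genes (Cd79b, 5.89 and 6.37), 0 of 3 plasma cell genes (brightest Sdc1), 0 of 8 myeloid genes (brightest Lyz2) and 2 of 5 stromal or endothelial genes (Pecam1, which T cells also express, and Col1a1) averaged above the background mean. The per-array mean of the B cell markers ran from 4.89 to 5.30 in NOD and from 4.75 to 5.52 in NOD.Drak2-/-. Stk17b kept a bright signal in the NOD.Drak2-/- arrays (10.25, against 10.52 in NOD), so it does not check the labels.

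Between the genotypes, 0 of the 10 clock output genes passed an adjusted p of 0.05 in limma, where 0.0205% of all genes passed, and 2, Nfil3 and Tef, were at an unadjusted p under 0.05, where 9.43% of all genes were. Under an ordinary equal-variance model 0 of all genes passed. For 0 of the 10 were the arrays of both genotypes wholly apart, against 0.513% of all genes. Because the genes were chosen with this contrast in view, their differences are given as a description with 95% intervals and nothing is read from these counts. The difference was positive for 8 of the 10, with a median of 0.12 (log2, NOD.Drak2-/- minus NOD), whereas 45.9% of all genes were positive, with a median of -0.02. Of those 8, Tef, Hlf, Per3 and Nr1d1 were above background on 3, 0, 0 and 1 of 12 arrays, so their differences are between values that are mostly bounds, and neither the count nor the median is read further. Without NOD.Drak2-/- replicate 1 the median of the 10 was 0.04.

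**Figure D1:**
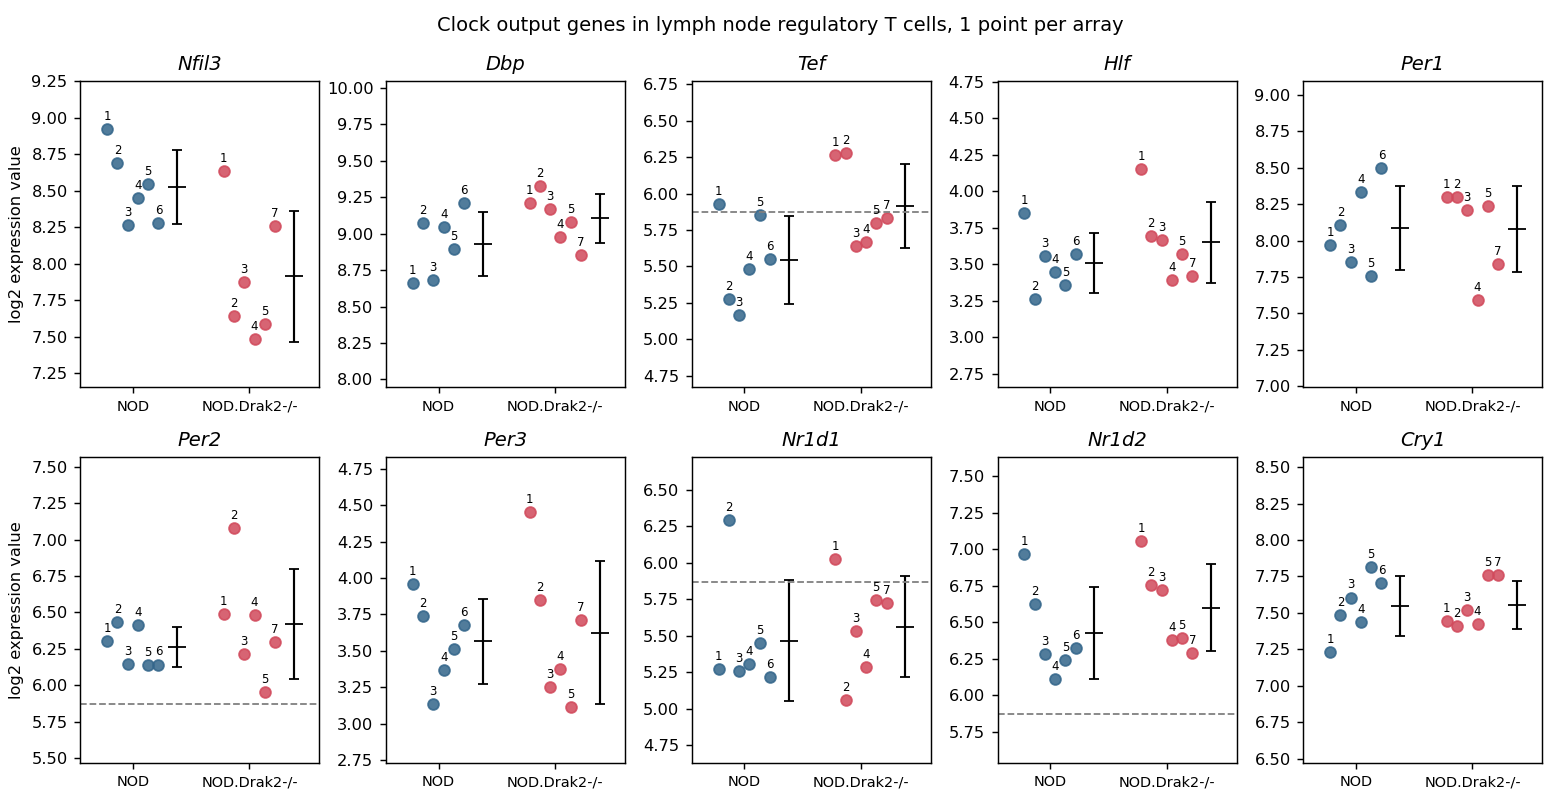
Log2 expression values of the 10 clock output genes, 1 point per array labelled with its replicate number, with the mean and SD of the 6 arrays beside each genotype; each panel spans the same log2 range, and the dashed line is the mean of the brightest background row (5.87). Nfil3 is below every NOD array in 5 of 6 NOD.Drak2-/- arrays, while the points of the other 9 genes are interleaved; Hlf and Per3 lie wholly under the background line, outside their panels.

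Nfil3, the D-box repressor, had the lowest difference of the 10. Taken in the order of replicates 1 to 6, its NOD values were 8.93, 8.69, 8.26, 8.45, 8.55 and 8.28; in the order of replicates 1 to 5 and 7, its NOD.Drak2-/- values were 8.63, 7.64, 7.88, 7.48, 7.59 and 8.26. Replicate 1 of NOD.Drak2-/- lay inside the NOD range, replicate 7 just under its lower edge, and the other 4 were clearly lower, so the groups overlapped through 1 array. The means were 8.53 ± 0.25 (SD, n = 6) and 7.91 ± 0.45 (SD, n = 6), a difference of -0.61 (95% interval -1.01 to -0.21), or 0.654 times the NOD level. This is the value for which the genes were chosen. It ran from -0.76 without NOD.Drak2-/- replicate 1 to -0.53 without replicate 4, and was -0.60 with the GC measure described below as a covariate. The spread between arrays was wide: the SD within genotypes was 0.37, larger than that of 80.2% of the 8128 genes above background. An array value is an average over the sorted cells, so fewer cells with the transcript and less transcript per cell cannot be told apart.

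The PAR bZIP activators that compete with NFIL3 had differences above 0. Of these genes only Dbp was above background throughout, and its interval held 0. Dbp, the most strongly rhythmic of them in most tissues, was far above background on all 12 arrays. Its NOD arrays gave 8.66, 9.07, 8.69, 9.04, 8.90 and 9.21 and its NOD.Drak2-/- arrays 9.21, 9.33, 9.17, 8.98, 9.08 and 8.86. The upper ends differed by little and the groups overlapped over most of their range. The difference was 0.18 (95% interval -0.09 to 0.44), with means of 8.93 ± 0.22 and 9.10 ± 0.17 (SD, n = 6 each). Tef gave 5.93, 5.28, 5.17, 5.48, 5.85 and 5.55 in NOD and 6.27, 6.28, 5.64, 5.67, 5.80 and 5.84 in NOD.Drak2-/-. Only replicates 1 and 2 of NOD.Drak2-/- exceeded all NOD arrays, and these 2 also had the highest background rows of the 12 (6.52 and 6.77), whose part in the difference was not tested. Tef passed the brightest background row of its own array on 3 of 12 arrays, so most of its values are bounds. Its difference was 0.37 (95% interval 0.03 to 0.71). Hlf, best known from liver, brain and blood stem cells, was under background on all 12 arrays, with values from 3.26 to 3.85 in NOD and from 3.39 to 4.15 in NOD.Drak2-/-.

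**Figure D2:**
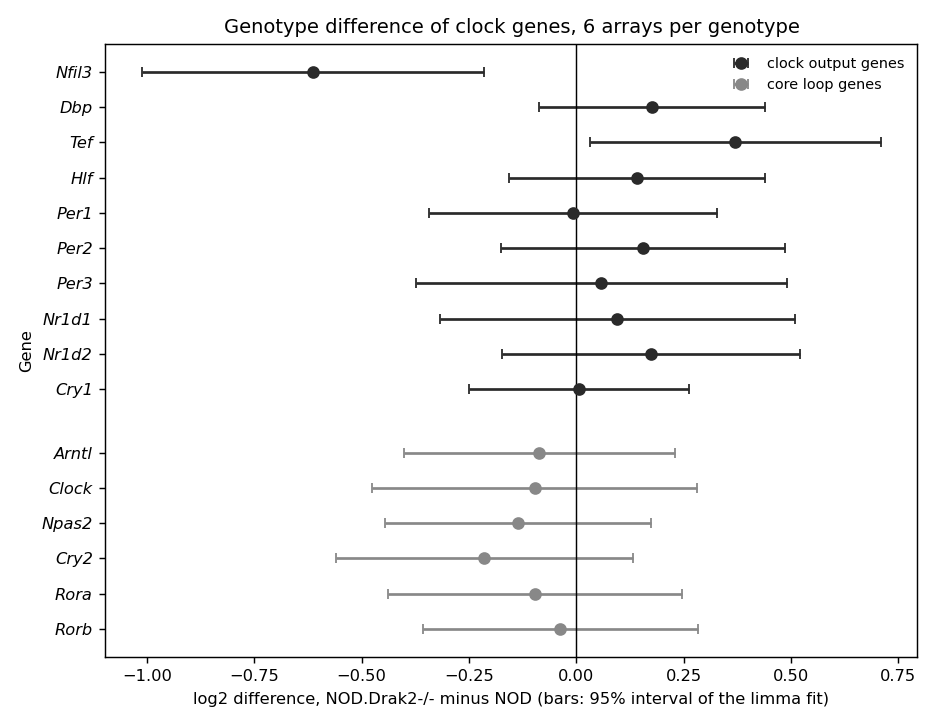
Log2 difference, NOD.Drak2-/- minus NOD, of the 10 clock output genes (dark) and of 6 core loop genes (grey), with the 95% interval of the limma fit over 6 arrays per genotype. Nfil3, for which the genes were chosen, is at -0.61, and Tef, mostly under background, at 0.37. Of the 10 genes 0 passed adjustment over all genes. All 6 core loop points lie between -0.21 and -0.04, with Npas2 and Rorb under background.

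Of the Period genes, the negative arm of the loop, Per1 and Per2 were detected and Per3 was not. Per1, which is also an immediate early gene and a glucocorticoid target, gave 7.97, 8.11, 7.85, 8.34, 7.76 and 8.50 in NOD and 8.30, 8.30, 8.21, 7.59, 8.24 and 7.84 in NOD.Drak2-/-. The groups lay on top of each other, with a difference of -0.01 (95% interval -0.34 to 0.33) whose sign turned when arrays were centred on their medians. Per2 gave 6.31, 6.43, 6.15, 6.41, 6.14 and 6.14 in NOD and 6.49, 7.08, 6.21, 6.48, 5.96 and 6.30 in NOD.Drak2-/-. Replicate 2 of NOD.Drak2-/- was the high one and replicate 5 the low one, and the SD was 0.14 in NOD and 0.38 in NOD.Drak2-/-. Replicate 2 also had the brightest background row, 6.77. The difference of 0.16 (95% interval -0.18 to 0.49) became 0.02 without replicate 2. Per2 exceeded its array's brightest background row on 10 of 12 arrays. Per3 was below background on all 12, between 3.13 and 3.96 in NOD and between 3.11 and 4.45 in NOD.Drak2-/-, and its difference of 0.06 became -0.11 without NOD.Drak2-/- replicate 1.

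For the REV-ERB genes and Cry1 the arrays of both genotypes overlapped. Nr1d1 passed background on 1 of 12 arrays only, NOD replicate 2 at 6.30; the other NOD arrays gave 5.22 to 5.45 and the NOD.Drak2-/- arrays 5.06 to 6.03. Its difference was 0.10 (95% interval -0.32 to 0.51), 0.26 without that array and 0.00 without NOD.Drak2-/- replicate 1. Nr1d2, its close relative, was detected on 11 of 12 arrays. It gave 6.97, 6.63, 6.28, 6.11, 6.24 and 6.32 in NOD and 7.06, 6.76, 6.72, 6.38, 6.39 and 6.29 in NOD.Drak2-/-. Replicate 1 was the highest array of each genotype, and the difference was 0.17 (95% interval -0.17 to 0.52), from 0.08 without NOD.Drak2-/- replicate 1 to 0.28 without NOD replicate 1. Cry1, a repressor of CLOCK and ARNTL, was the steadiest, with 7.23, 7.49, 7.61, 7.44, 7.81 and 7.70 in NOD and 7.44, 7.41, 7.52, 7.42, 7.76 and 7.76 in NOD.Drak2-/-. Its means of 7.55 ± 0.21 and 7.55 ± 0.17 (SD, n = 6 each) differed by 0.01 (95% interval -0.25 to 0.26).

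The other genes of the loop and its modifiers showed no call either. In the core loop, Arntl, Clock, Npas2, Cry2, Rora and Rorb were measured; 0 of 6 rose and 0 fell in limma, 0 were at an unadjusted p under 0.05, and all 6 differences were negative, with a median of -0.10. Arntl, the partner of CLOCK, averaged 8.23 in NOD and 8.14 in NOD.Drak2-/- (difference -0.09, adjusted p = 0.871 in limma). Clock averaged 8.54 and 8.44 (difference -0.10, adjusted p = 0.879), a difference that turned to 0.06 without NOD replicate 3. Cry2 differed by -0.21 (adjusted p = 0.688) and Npas2, in the background range, by -0.14 (adjusted p = 0.777). Among 14 measured modifiers, such as the casein kinases that mark Period proteins for decay, 0 rose and 0 fell and the median was 0.06. Usp2, a clock-driven ubiquitin protease, had the smallest p of the list. Its NOD arrays ran from 5.59 to 6.63 and its NOD.Drak2-/- arrays gave 6.68, 6.57, 6.66, 6.43, 6.90 and 7.24. The groups overlapped through NOD replicate 5, and Usp2 averaged 6.05 in NOD and 6.75 in NOD.Drak2-/- (difference 0.70, adjusted p = 0.393, above the NOD mean in 6 of 6 arrays). Fbxl21, of the F-box proteins that act on cryptochromes, differed by 0.36 (adjusted p = 0.485, 6 of 6 arrays above the NOD mean). Fbxl21 passed the brightest background row of its array on 7 of 12 arrays, Usp2 on 9 and Cry2 on 8. The rest of their values are bounds.

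Genes on which NFIL3 or the PAR bZIP factors are reported to act gave 1 call among 8 measured, where 0.0205% of all genes were called. The called gene was listed with its result known, so nothing is read from this count. Abcb1a, the drug efflux transporter whose D-box is activated by HLF and repressed by NFIL3 in mouse intestine, gave 6.46, 7.57, 7.16, 5.99, 6.55 and 6.13 in NOD and 8.41, 7.84, 7.86, 9.02, 8.27 and 8.26 in NOD.Drak2-/-. All NOD.Drak2-/- arrays lay above all NOD arrays, with NOD replicate 2 the closest. The genotypes were wholly apart, in either direction, for 0.513% of all genes. Abcb1a averaged 6.64 and 8.28 and rose by 1.63 (adjusted p = 0.0463 in limma); it entered this list with that result known. The call was lost with 11 of the 12 arrays left out in turn (adjusted p up to 0.166), and kept only without NOD replicate 2 (adjusted p = 0.00991); it was also lost with the GC covariate (adjusted p = 0.0612), with an ordinary equal-variance model (adjusted p = 0.384) and with a replicate block (adjusted p = 0.629). The difference itself was 1.57 with the GC covariate, 1.63 with the ordinary model, 1.54 with the block and 1.49 to 1.82 with 1 array left out. The other 7 did not pass, among them the cytokine gene Il4 in the background range (difference 0.45, adjusted p = 0.444), and the median of the 8 was 0.02. Within genotypes, where the contrast is removed, no relation of Abcb1a with Nfil3 was detected across arrays (Pearson's r = 0.01 over 12 genotype-centred arrays, exact permutation p = 0.977; Spearman's rho = 0.01, p = 0.972). In the NOD arrays alone r was 0.15 and in the NOD.Drak2-/- arrays alone -0.10.

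How the clock output genes varied from array to array was examined after each genotype's mean had been subtracted, which removes the contrast that chose them. With 1 mouse per array, variation between mice and between arrays cannot be told apart. NOD.Drak2-/- replicate 1 was the highest array of its genotype for 6 of the 10 genes and the lowest for 0, with a mean deviation of 0.36. Of those 6, Hlf (4.15), Per3 (4.45) and Nr1d1 (6.03) were under the brightest background row of that array, 6.52. The GC measure described below was 0.23 above its genotype mean on that array. NOD replicate 1 was the highest of its genotype for 5 and the lowest for 2. At the other end, NOD replicate 3 and NOD.Drak2-/- replicate 4 were each the lowest of their genotype for 3 genes. Nfil3, Hlf, Per3 and Nr1d2 were at their highest in replicate 1 of both genotypes.

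**Figure D3:**
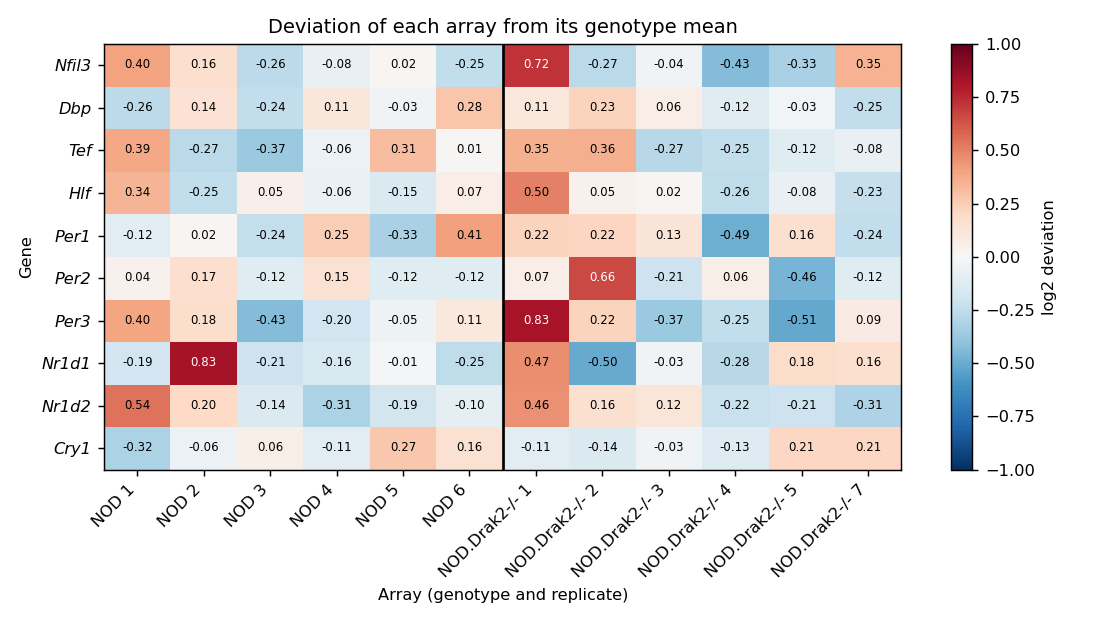
Deviation of each of the 12 arrays (columns) from the mean of its genotype for the 10 clock output genes (rows), in log2 units, written in each cell. The column of NOD.Drak2-/- replicate 1 is positive for 9 genes, with Per3, under background, at 0.83 and Nfil3 at 0.72, and Nr1d1 in NOD replicate 2 stands at 0.83.

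The relation of each pair was tested over the 12 centred arrays by a two-sided exact permutation test that shuffled arrays within each genotype, over a family of 59 pairs: all pairs of the 10 genes, Arntl with each of them, and Abcb1a with Nfil3, Dbp, Tef and Hlf. After Benjamini-Hochberg adjustment 0 of 59 pairs passed by Pearson's r (0% of the family) and 0 by Spearman's rho, with 9 and 7 at an unadjusted p under 0.05. The most closely related were Dbp and Per1 (r = 0.78, permutation p = 0.00659, adjusted p = 0.14; rho = 0.76, p = 0.00988, adjusted p = 0.223), with r of 0.78 in NOD and 0.79 in NOD.Drak2-/-, and 0.80 without the 2 arrays farthest from the median of Dbp. Nfil3 and Per3 had r = 0.77 (permutation p = 0.0096, adjusted p = 0.14; rho = 0.64, p = 0.0466, adjusted p = 0.393), but r was 0.42 without both replicates 1, and Per3 was under background throughout. Hlf and Nr1d2, with r = 0.745 (permutation p = 0.0081, adjusted p = 0.14; rho = 0.59, p = 0.0575, adjusted p = 0.419), likewise had 0.25 without those 2 arrays. The pair passed without NOD replicate 2 (r = 0.91, adjusted p = 0.0287).

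The negative relations passed no adjustment either, and Arntl itself ran from a negative r with Per1 and Dbp to a positive one with Nr1d1 (0.41). Arntl and Per1, which peak at opposite hours in most tissues, had r = -0.67 (permutation p = 0.0248, adjusted p = 0.209; rho = -0.73, p = 0.0133, adjusted p = 0.223), and -0.61 without the 2 farthest arrays. It was -0.72 within NOD and -0.63 within NOD.Drak2-/-. Arntl and Dbp had r = -0.59 (permutation p = 0.0644, adjusted p = 0.292; rho = -0.70, p = 0.0204, adjusted p = 0.24), and -0.44 without the 2 farthest arrays. Per2 and Cry1, both repressors of CLOCK and ARNTL, had the smallest p of the negative pairs (r = -0.60, permutation p = 0.0155, adjusted p = 0.153; rho = -0.72, p = 0.0151, adjusted p = 0.223). Their r was -0.69 in NOD, -0.72 in NOD.Drak2-/- and -0.65 without the 2 farthest arrays. Nr1d2 and Cry1 had r = -0.66 (permutation p = 0.0313, adjusted p = 0.231; rho = -0.49, p = 0.125, adjusted p = 0.554), and -0.42 without both replicates 1. Nfil3 showed no detectable relation to Dbp (r = -0.15, permutation p = 0.637; rho = -0.18, p = 0.554) and to Per1 (r = 0.06, permutation p = 0.876; rho = 0.02, p = 0.956).

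**Figure D4:**
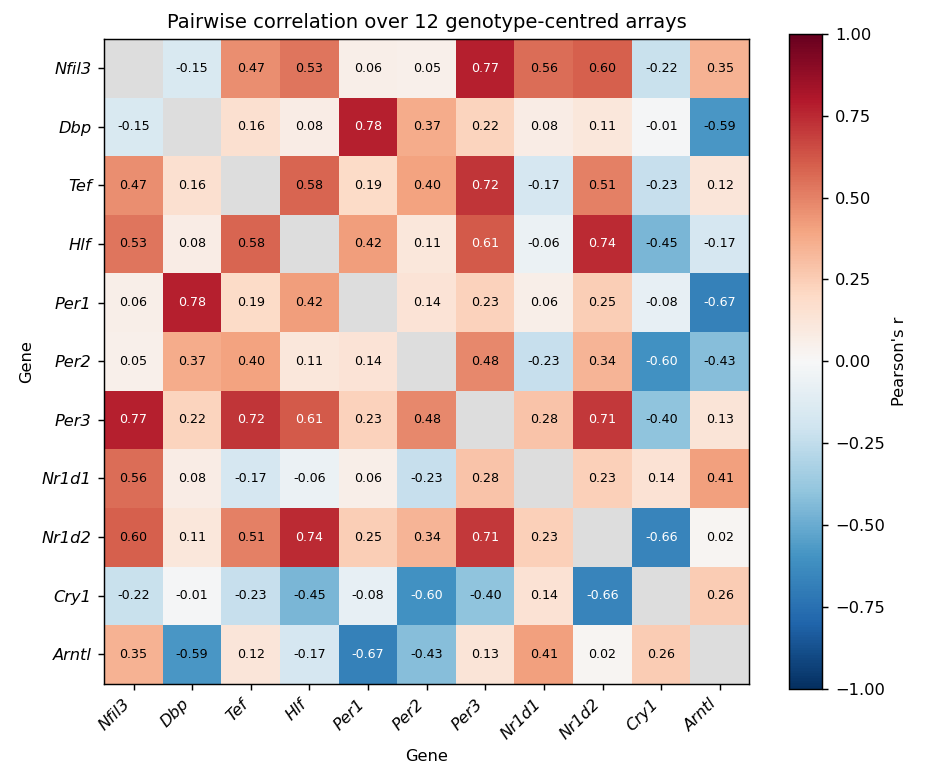
Pearson's r of each pair among the 10 clock output genes and Arntl over 12 genotype-centred arrays, written in each cell, red for positive and blue for negative. Dbp with Per1 (0.78) and Nfil3 with Per3 (0.77) have the highest values and Arntl with Per1 (-0.67) the lowest; 0 of the pairs passed adjustment over the family.

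Over the 12 arrays of both genotypes pooled, Per1 and Dbp moved with genes that handling of cells is known to induce. The immediate early and dissociation list, 15 genes such as Fos and Btg2, did not differ between the genotypes by any called gene (0 rose and 0 fell in limma, median 0.00, with Btg2 at 0.36, adjusted p = 0.47, and Fos at 0.44, adjusted p = 0.527). Its per-array mean ran from 7.41 to 7.79 in NOD and from 7.33 to 7.97 in NOD.Drak2-/-. Each of the 10 genes was set against this mean and against that of a glucocorticoid response list, a family of 20 relations, of which 2 passed (10%). Dbp followed the immediate early mean (r = 0.81, permutation p = 0.000403, adjusted p = 0.00806; rho = 0.82, p = 0.00022, adjusted p = 0.0044), with r of 0.92 in NOD and 0.88 in NOD.Drak2-/-, 0.75 without the 2 farthest arrays, and a call in 12 of 12 fits that left out 1 array. Per1 did so too (r = 0.78, permutation p = 0.00361, adjusted p = 0.0361; rho = 0.80, p = 0.00176, adjusted p = 0.0176), with 0.75 without the 2 farthest arrays. Its call held in 6 of 12 such fits and was lost when NOD.Drak2-/- replicate 2 or 3, or any of NOD replicates 2, 4, 5 and 6, was left out (adjusted p up to 0.184; r was between 0.71 and 0.865 in all 12 fits). For Nfil3 no relation was detected (r = 0.21, permutation p = 0.608, and rho = 0.16, p = 0.673), with r of -0.61 in NOD and 0.44 in NOD.Drak2-/-. Other pooled values join unlike ones too. Nr1d2 had r of -0.54 in NOD and 0.94 in NOD.Drak2-/-, Hlf -0.35 and 0.89, and Tef -0.31 and 0.84. Per1 had 0.87 and 0.80. Whether these differ between the genotypes was not tested.

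A measure of the arrays themselves moved with Dbp as closely. The background rows differ in the number of G and C bases of their probes, and the mean of the 8 rows with at least 18 minus that of the 8 rows with at most 10 was taken per array, after the data had been seen. It ran from 2.75 to 3.29 in NOD and from 2.75 to 3.20 in NOD.Drak2-/-. Over the 10 genes and both lists, 2 of 12 relations with it passed (16.7%): Dbp (r = 0.91, permutation p = 7.91e-05, adjusted p = 0.000949; rho = 0.87, p = 0.00015, adjusted p = 0.00181) and the immediate early mean (r = 0.88, permutation p = 0.000193, adjusted p = 0.00116; rho = 0.92, p = 0.000376, adjusted p = 0.00226). Without the 2 arrays farthest from the median of the GC difference these were 0.89 and 0.89. Only 0.123% of the genes above background had an r with it as high as Dbp. With the GC difference removed from both, the r of Dbp with the immediate early mean was 0.02, that of Per1 was 0.59, and that of Dbp with Per1 was 0.59. That of Hlf, under background on all arrays, went the other way, from 0.55 to 0.90, the highest of the 20 relations after removal. The pooled values of Hlf join unlike ones. Its r with the immediate early mean was -0.35 in NOD and 0.89 in NOD.Drak2-/-. With the GC difference its r was -0.78 and 0.83, so the 0.90 is not read as a shared relation. Per1 had r = 0.65 with the GC difference (permutation p = 0.0341, adjusted p = 0.136; rho = 0.65, p = 0.0317, adjusted p = 0.127) and Nfil3 0.07 (permutation p = 0.831; rho = 0.06, p = 0.862). For Nfil3 the pooled value joins -0.44 in NOD and 0.37 in NOD.Drak2-/-. The genotype difference of Dbp was 0.28 with the measure as a covariate.

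**Figure D5:**
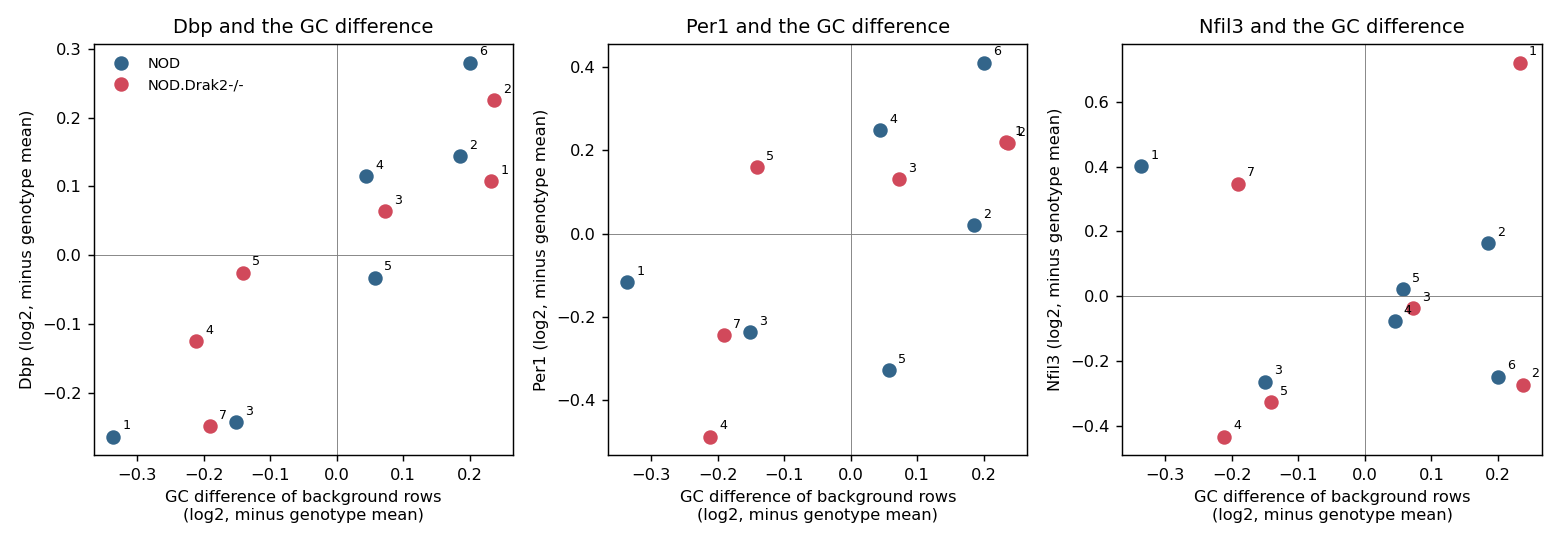
Log2 value of Dbp, Per1 and Nfil3 on each array minus the mean of its genotype (vertical axes), against the GC difference of the background rows on the same array, also minus its genotype mean (horizontal axes); 1 point per array, labelled with its replicate number. Dbp rises with the GC difference over both genotypes (r = 0.91), and Per1 less closely (0.65). The pooled r of Nfil3 is 0.07, which joins -0.44 in NOD and 0.37 in NOD.Drak2-/-.

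Glucocorticoids reset Per1 and other clock genes in many tissues, and a list of glucocorticoid response genes, Per1 among them, was therefore examined. Of its 9 measured genes 0 rose and 0 fell in limma, 6 had a positive difference, and the median was 0.25. Ddit4 differed by 0.74 (adjusted p = 0.469) and Tsc22d3, which encodes the glucocorticoid-induced leucine zipper, by 0.71 (adjusted p = 0.471), each above the NOD mean in 6 of 6 arrays. Per-array means ran from 6.76 to 7.23 in NOD and from 7.21 to 7.47 in NOD.Drak2-/-, so that the genotypes just overlapped. Within genotypes, no relation of Per1 with the list mean without it was detected (r = 0.19, permutation p = 0.567; rho = 0.28, p = 0.402), nor of Nfil3 (r = -0.20, permutation p = 0.525; rho = -0.19, p = 0.568). The pooled values join unlike ones for several of the genes. For Nfil3 r was -0.96 over the 6 NOD arrays (exact permutation p = 0.00417, not adjusted) and 0.35 over the 6 NOD.Drak2-/- arrays (exact permutation p = 0.476). Tef had -0.74 in NOD and 0.96 in NOD.Drak2-/-, Per3 had -0.86 and 0.81, and Nr1d2 had -0.82 and 0.80. The difference between the genotypes was tested for none of these.

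Over the 12 centred arrays, the genes above background whose pattern was most like that of Nfil3 were Tor2a (r = 0.86), Gal3st2 (0.85), Xpa (0.84), Gadd45b (0.82) and Oser1 (0.82), out of 8127 compared. Those most like Dbp were Kmt5c (r = 0.95), Trub2 (0.93), Rac2 (0.93), B4galnt1 (0.93) and Mast3 (0.92), and their own r with the GC difference was 0.93, 0.85, 0.79, 0.90 and 0.94. The 5 genes most like Nfil3 had an r with that measure between -0.13 and 0.17. These are descriptions of the same 12 arrays, whose labelling and scanning the genes share, and they carry no test.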

How the data were processed

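The authors deposited 1 table of log2 values, 12 arrays of 1 colour; the submitters' processing notes list RMA and oligo, with no version number. It held 29129 rows, of which 19572 had 1 gene symbol. Another 2634 transcript cluster rows, with no symbol or with more than 1, were not tested. The brightest row per gene was kept, which gave 19505 genes, with no filter on dim genes. The genotypes were compared in limma 3.58.1 (R 4.3.3; lmFit and eBayes, no covariate), with Benjamini-Hochberg adjustment over all genes and a threshold of 0.05; every adjusted p of a single gene is from that fit. Correlations used genotype-centred values and all 518400 shuffles within genotypes. The genes, lists and tests were chosen with earlier results of these data known. Genes named besides the 10 were Stk17b, Abcb1a, Arntl, Clock, Npas2 and Cry2, any list gene that passed, and if none did, the pair of lowest p in that list, the brightest gene of each list of other cells, and the 5 genes most like Nfil3 and Dbp. Il4, Il2ra, Rora, Rorb and Col1a1 were named after their values were seen. The limma and correlation steps were tested on simulated data. Replicates are single mice, per the labels; array number limits the precision. Alternatives were array centring, a dim filter, all rows, other variance models, array weights, a replicate block, Spearman's rho, leaving out each array, and the GC covariate. All 10 genes had 1 row, so a second row could not be tried.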

Additional observations from a re-analysis of the deposited data

Results flagged for a closer look

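Single arrays stood apart in 3 of 48 sets of 6 arrays examined, where chance gives about 1 in 20. Nr1d1 in NOD replicate 2 was 6.30, and the nearest NOD array was 5.45, a gap of 0.78 of the range of that genotype. Npas2 in NOD replicate 6 was 4.34, against 3.86 in the nearest, with all arrays of this gene under background. Stk17b in NOD.Drak2-/- replicate 2 was 9.97, the lowest of its genotype, against 10.21 in the nearest.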

How the results depend on the processing

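The count of genes past the threshold between the genotypes was 4. It was 0 with an ordinary equal-variance model and 0 with the replicate block over arrays 1 to 5. It was 7 with the GC difference as a covariate (chosen after seeing the data), and 1 to 2 with 1 array left out. The cause was not tested. Fits with 1 array left out lose that array, and the block fit also lost NOD replicate 6 and NOD.Drak2-/- replicate 7. Same-numbered arrays deviated with correlations from -0.18 to 0.09, so no pairing by number was seen. Whether same-numbered mice were handled together is not in the labels, and these correlations cannot tell. The fit with the replicate block gave a difference of -0.73 for Nfil3 and called none of the named genes. With 1 array of each genotype in every block, the block itself cannot move a difference. The change of Nfil3 from -0.61 is therefore that of the arrays left out. The median difference of the 10 clock output genes ran from 0.04 to 0.16 with 1 array left out. The number of the 59 pairs past the threshold ran from 0 to 1, and that of the 20 relations with lists from 1 to 4. With 1 array left out, Per1 ran from -0.07 to 0.09, Cry1 from -0.06 to 0.06, Per3 from -0.11 to 0.16 and Clock from -0.19 to 0.0584 (without NOD replicate 3), so these 4 had no settled sign. Centring arrays moved the median of all genes by 0.07, and 9 of the 10 clock output genes were then positive, all but Nfil3. Low signal limits Tef, Hlf, Per3 and Nr1d1, which were near or under background.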
